A study of Mus musculus with 6 samples.

Results

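The genes described here were picked by symbol for the machinery that docks, fuses and retrieves synaptic vesicles, and many serve mainly other membrane traffic. They were measured in the striatum of Hdh4/Q80 mutant and wild-type mice. They are the 86 probe sets, of 12422 on the arrays, whose platform annotation names exactly 1 gene and whose symbol begins or reads like a synaptotagmin, syntaxin, syntaxin-binding protein, SNAP, VAMP, synapsin, SV2, Rab3, complexin, synaptophysin, synaptogyrin, NSF, alpha-, beta- or gamma-SNAP, AP-2, dynamin or clathrin chain. The 86 probe sets belong to 65 genes, of 8251 genes named by the arrays. The name pattern also took in Rab31, Rab33a, Rab33b, Rab34 and Rab35, small GTPases that are not Rab3 proteins, and Snap91, which encodes the clathrin assembly protein AP180 and no SNARE. Synapsin 1, SV2A and SV2B (Syn1, Sv2a, Sv2b) were not analysed here. RNA came from 3 Hdh4/Q80 mice (replicates 7 to 9) and 3 wild-type littermates (replicates 4 to 6), all female, 12 months old and C57BL/6 by the labels, with 1 Affymetrix array per mouse. Hdh4/Q80 mice carry a lengthened CAG repeat in the mouse huntingtin gene, so that the mutant protein with its long glutamine tract comes from the gene's own promoter. The labels call the mice transgenic, and the number of mutant copies they carry was not given in the sources used here. The question addressed is whether these messages stood at other levels in the mutant striatum at this age.

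At a nerve terminal, VAMP on the vesicle pairs with syntaxin and SNAP-25 on the plasma membrane to form the SNARE complex that pulls the membranes together. Synaptotagmins sense calcium and trigger fusion, complexins hold the assembled SNAREs until then, NSF with the SNAP adaptors takes the spent complexes apart, and AP-2, clathrin and dynamin retrieve the membrane. In the striatum the nerve-terminal messages come largely from local spiny projection neurons and interneurons, and many of the trafficking genes are used by glia and other cells too. The proteins in cortical and nigral axon terminals are made mostly from messages in cell bodies elsewhere. Loss of presynaptic proteins has been a recurring theme in the study of Huntington's disease.

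The values are log2 expression on the scale of robust multi-array average (RMA), where a difference of 1 is a doubling. Array medians lay between 7.11 and 7.13. The striatal markers Penk, Drd2, Tac1 and Pdyn read 12.92 to 13.14, 9.52 to 9.90, 9.52 to 10.20 and 8.26 to 8.39 on their brightest probe sets, all above the array medians. Hdh4/Q80 replicate 8 stood apart from the other mice over all probe sets. The SD of its deviations from the 6-array means was 0.179, against 0.072 to 0.119 in the other 5 mice, and its upper quartile was the lowest (8.16, against 8.20 to 8.23) while its lower quartile was the highest (5.86, against 5.79 to 5.84). For the 86 probe sets and their groups by role, counts below 0, medians and the differences of genes shown mouse by mouse are therefore also given without this mouse. Leaving it out turned the sign of the difference in 22 of the 86.

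Promoters from RefSeq (build GRCm38.p6) were matched to 56 of the 65 genes, with 74 start sites. Within the 250 bases before the start, the GC box GGGCGG, a site of the Sp1 family, was found on either strand at 59.5% of the 74 starts, against 42.6% of the 21262 starts of all protein-coding genes. The TATA box letters TATAAA, searched on both strands, were found at 4.05% of the starts and at 11.6% of all protein-coding starts. The cAMP response element letters TGACGTCA, searched on both strands, were found at 4.05% and 1.92%. The 250 bases before the start are shown for 4 genes picked after their values were seen, 5′ to 3′ with GC boxes in capitals. Syt11 had the lowest difference of all 86 probe sets. Rab33b had groups that did not overlap and one of the smallest p-values on its dimmer probe set, but not on its brighter one. Stx1a had the widest spread among wild-type mice, and Nsf was the lower gene with the smallest p. No GC box letters occur in the Nsf window.
Syt11, chr3:88772600-88772849, minus strand: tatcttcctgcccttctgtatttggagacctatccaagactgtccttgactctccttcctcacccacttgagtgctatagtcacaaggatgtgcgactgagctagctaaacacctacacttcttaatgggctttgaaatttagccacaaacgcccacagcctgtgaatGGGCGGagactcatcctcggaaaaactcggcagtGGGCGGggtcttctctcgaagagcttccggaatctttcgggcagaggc
Rab33b, chr3:51483716-51483965, plus strand: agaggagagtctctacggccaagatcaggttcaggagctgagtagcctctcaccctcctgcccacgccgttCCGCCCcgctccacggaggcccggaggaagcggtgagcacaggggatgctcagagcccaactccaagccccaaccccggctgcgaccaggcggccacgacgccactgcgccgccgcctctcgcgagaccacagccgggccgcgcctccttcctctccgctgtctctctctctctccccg
Stx1a, chr5:135023232-135023481, plus strand: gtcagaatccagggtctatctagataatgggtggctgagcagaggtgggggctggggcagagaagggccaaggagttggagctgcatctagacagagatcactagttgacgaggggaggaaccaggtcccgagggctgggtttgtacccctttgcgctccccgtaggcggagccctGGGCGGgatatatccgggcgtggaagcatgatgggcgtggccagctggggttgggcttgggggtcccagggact
Nsf, chr11:103954057-103954306, minus strand: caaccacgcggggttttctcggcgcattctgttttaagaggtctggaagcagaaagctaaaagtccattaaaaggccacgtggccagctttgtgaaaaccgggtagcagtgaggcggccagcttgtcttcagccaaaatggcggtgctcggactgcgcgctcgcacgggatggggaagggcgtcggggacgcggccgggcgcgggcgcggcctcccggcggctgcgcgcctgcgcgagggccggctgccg

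No vesicle or SNARE gene passed the test of mutant against wild-type mice. With limma and a false discovery rate (Benjamini-Hochberg over the whole array) of 0.05, 0 of the 86 probe sets were called, where 0% of the 12422 were, and no adjusted p among the 86 fell under 0.857. Unadjusted p-values under 0.05 belonged to 3 probe sets higher in the mutants (Syt3, Rab33b and Syt4), where 2.90% of all probe sets had one, and to 1 lower (Nsf), where 2.21% did. That is 4.65% of the 86 in both directions together, against 5.1% over the whole array. The differences ran from -0.27 for Syt11 to 0.29 for Syt4, and 0 of the 86 differed by more than 1.25-fold, against 102 of all 12422. For all 86 probe sets the 95% interval of the difference stayed within 1.5-fold in either direction on the array scale, against 98.6% of all probe sets. It stayed within 1.25-fold for 59 (68.6%), against 75.7% of all probe sets. In whole tissue, fewer cells of a type and less RNA per cell cannot be told apart.

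**Figure D1:**
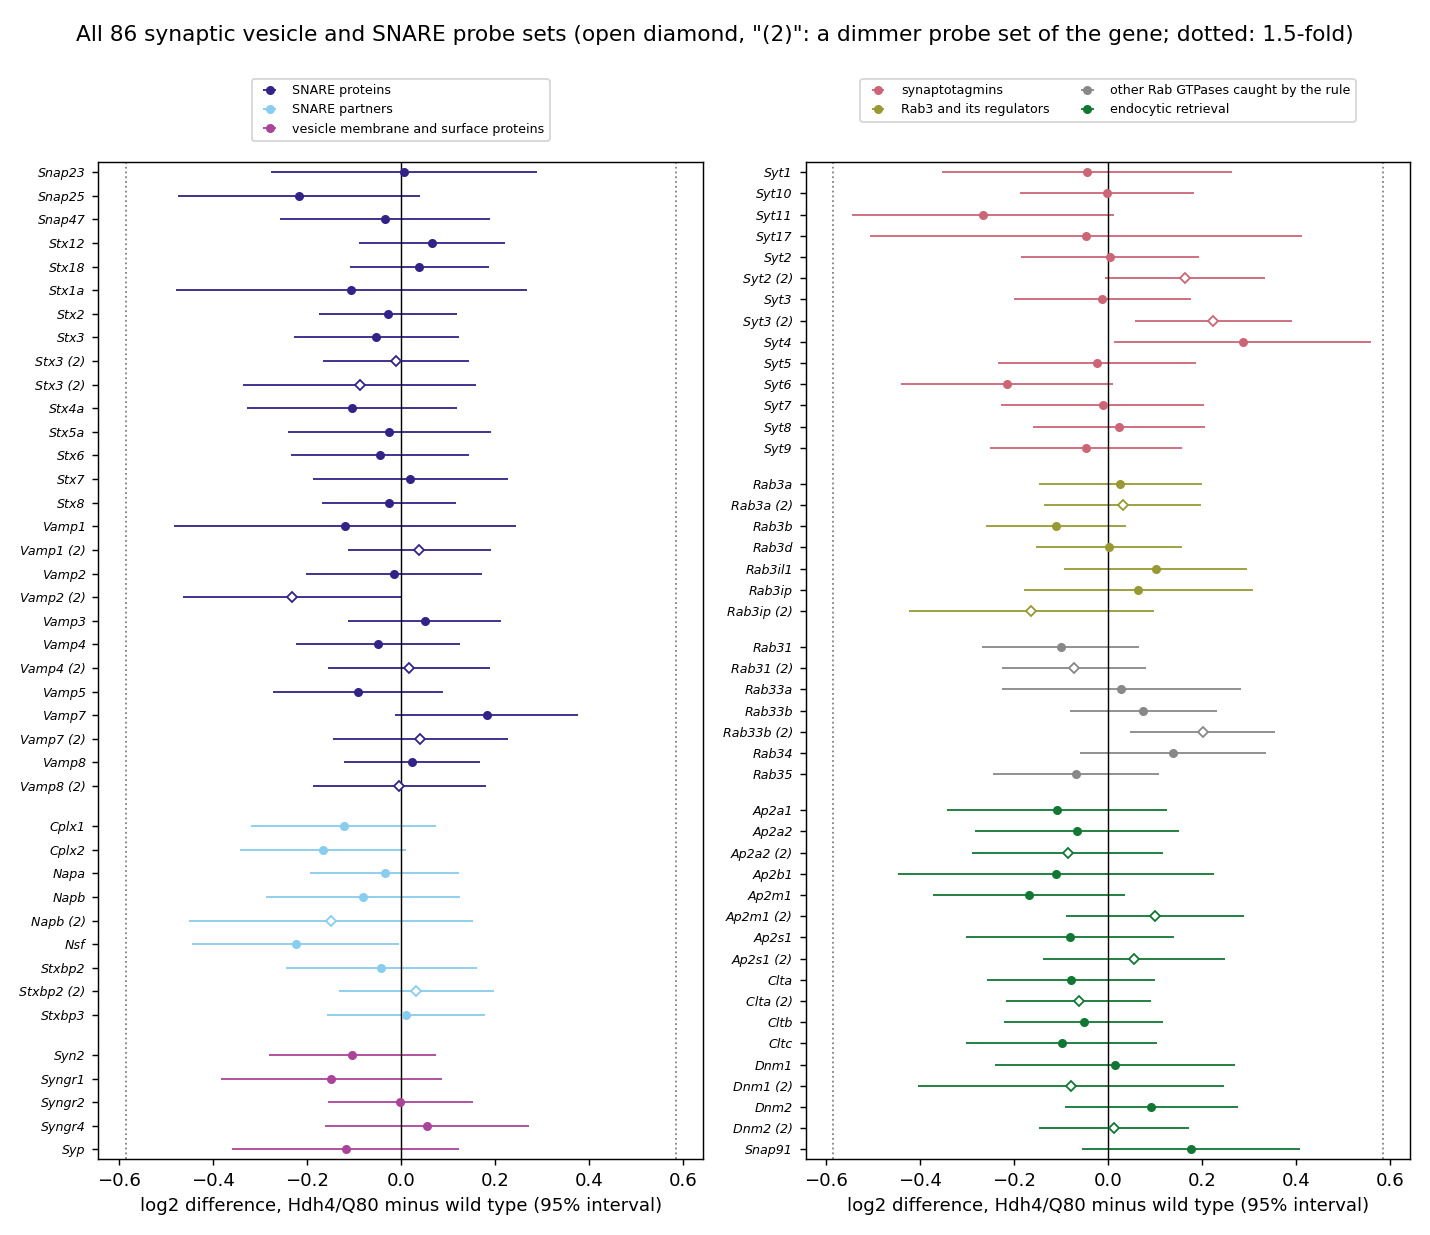
Log2 difference (Hdh4/Q80 minus wild type, 3 mice each) on the horizontal axis with its 95% interval for each of the 86 probe sets, grouped by role. Filled circles are a gene's brightest probe set, open diamonds its dimmer ones, and dotted lines mark 1.5-fold; all intervals lie between the dotted lines.

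The median difference of the 86 probe sets was -0.03, against -0.0027 over all probe sets, and 53 of the 86 (61.6%) were below 0, against 51.1% over all. By gene, on the brightest probe set, 43 of 65 were below 0, against 53.3% of all genes. Without Hdh4/Q80 replicate 8 the median was 0.0013 and 43 of the 86 (50%) were below 0, against 48% of all probe sets. The mutants lay entirely above the wild types for 3 probe sets (Syt3, Rab33b and Syt2), where 6.67% of all probe sets did. They lay entirely below for 2 (Cplx2 and Rab3b), where 5.05% did. In 71 of the 86 the 3 wild-type mice alone spanned more than the size of the difference between the groups, as they did in 74.9% of all probe sets.

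The SNARE proteins were measured by 27 probe sets for 20 genes, and 0 of them passed. By probe set 17 were below 0 and 10 above, with a median difference of -0.02. Without Hdh4/Q80 replicate 8, 11 of the 27 were below 0 and the median was 0.02. Snap25, the neuronal plasma membrane SNARE that binds syntaxin and VAMP, read 11.58, 11.47 and 11.72 in the wild types and 11.58, 11.13 and 11.41 in the mutants. Hdh4/Q80 replicate 8 was the lowest mouse and replicate 7 sat in the middle of the wild types, so the groups overlapped. The difference was -0.22 ± 0.115 (SE) with an interval of -0.47 to 0.04 (limma, adjusted p = 0.857), and it was -0.09 without Hdh4/Q80 replicate 8. Stx1a, the syntaxin of the presynaptic membrane, read 7.95, 7.64 and 8.42 in wild type and 7.96, 7.72 and 8.00 in Hdh4/Q80. Its highest and its lowest mouse were both wild type, and their gap of 0.78 was the widest wild-type range among the 86 probe sets. The difference of -0.11 ± 0.167 (SE) became 0.10 without wild-type replicate 6 and -0.02 without Hdh4/Q80 replicate 8.

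Vamp2, the main vesicle SNARE of the forebrain, gave different pictures on its 2 probe sets. The brighter one read 11.65, 11.43 and 11.59 in wild type against 11.53, 11.46 and 11.65 in Hdh4/Q80, a difference of -0.01 (interval -0.20 to 0.17), or 0.03 without Hdh4/Q80 replicate 8. The dimmer one read 8.85, 8.99 and 9.06 against 8.95, 8.57 and 8.68, a difference of -0.23 ± 0.104 (SE) with an interval of -0.46 to 0.0017. On it Hdh4/Q80 replicates 8 and 9 lay under all wild types and replicate 7 among them, and without replicate 8 the difference was -0.15. Vamp1, the related vesicle SNARE prominent in brainstem and spinal cord, read 7.90, 8.28 and 8.34 against 8.35, 7.70 and 8.11 (-0.12 ± 0.163, SE). The highest and the lowest mouse were both mutants, and without Hdh4/Q80 replicate 8 the difference was 0.06. A dimmer _r_at probe set of Vamp1 differed by 0.04.

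The remaining SNAREs serve mainly traffic outside the nerve terminal. Vamp7, a SNARE of late endosomes and lysosomes, read 7.01, 7.14 and 7.05 in wild type and 7.09, 7.37 and 7.29 in the mutants on its brighter probe set, which carries the _r_at suffix of a set with fewer specific probes (0.18 ± 0.087, SE, and 0.12 without Hdh4/Q80 replicate 8). The groups overlapped through Hdh4/Q80 replicate 7, and the dimmer Vamp7 probe set differed by 0.04. Snap23, the SNAP-25 relative found in most cells, read 6.42, 6.40 and 6.49 against 6.42, 6.75 and 6.16, so that mutants were both the highest and the lowest mouse (0.0071, and -0.15 without Hdh4/Q80 replicate 8). The Golgi and endosomal syntaxins differed little: Stx6 by -0.04, Stx7 by 0.02, Stx8 by -0.03, Stx12 by 0.07, and Stx5a and Stx18 of the early secretory pathway by -0.02 and 0.04. Stx8 was the steadiest of them, at 7.75 to 7.78 in wild type and 7.73 to 7.75 in Hdh4/Q80 (-0.03 with and without replicate 8). The plasma membrane syntaxins Stx2 and Stx4a differed by -0.03 and -0.10 (Stx4a by -0.0091 without Hdh4/Q80 replicate 8), and the 3 probe sets of Stx3 by -0.05, -0.09 and -0.01. Snap47 differed by -0.03, Vamp3 by 0.05, Vamp5 by -0.09, and Vamp4 by -0.05 and 0.02 on its 2 probe sets. Vamp8, the endosomal SNARE, differed by 0.02 and -0.0029, both on probe sets with the _f_at suffix of sets that can bind related transcripts.

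The partners that assemble and take apart SNARE complexes were measured by 9 probe sets for 7 genes. Of the 9 probe sets 7 were below 0 and 0 passed (median -0.08). Without Hdh4/Q80 replicate 8, 6 of the 9 were below 0 (median -0.02). Nsf, the ATPase that separates used SNARE complexes, read 10.93, 10.97 and 11.15 in wild type and 10.97, 10.63 and 10.79 in Hdh4/Q80. Replicates 8 and 9 of the mutants lay under every wild type, and replicate 7 lay at the level of wild-type replicates 4 and 5. The difference was -0.22 ± 0.0986 (SE; 1.17-fold lower, interval -0.44 to -0.0028), and in limma's fit the unadjusted p was 0.0477 and the adjusted p = 0.857. It ran from -0.31 to -0.14 with 1 mouse left out, the smaller size without Hdh4/Q80 replicate 8. Cplx2, one of the complexins, which clamp SNARE complexes, read 9.63, 9.62 and 9.61 in wild type and 9.57, 9.31 and 9.48 in Hdh4/Q80. The wild types were nearly identical and all 3 mutants lay below them, by -0.17 ± 0.0793 (SE) on average (interval -0.34 to 0.01, adjusted p = 0.857 in limma's test). Without Hdh4/Q80 replicate 8 the difference was -0.10. Its paralogue Cplx1 read 10.74, 10.96 and 10.88 against 10.86, 10.61 and 10.75, with overlapping groups and a difference of -0.12 ± 0.0883 (SE; -0.06 without that mouse). The SNAP adaptors that recruit NSF differed by -0.03 (Napa, alpha-SNAP) and by -0.08 and -0.15 on the 2 probe sets of Napb, the brain-enriched beta-SNAP. The Napb values were -0.04 and 0.0035 without Hdh4/Q80 replicate 8. Stxbp2 and Stxbp3, syntaxin-binding proteins that serve secretion outside the synapse, differed by -0.04 and 0.01 on their brightest probe sets. A dimmer _r_at probe set of Stxbp2 differed by 0.03.

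**Figure D2:**
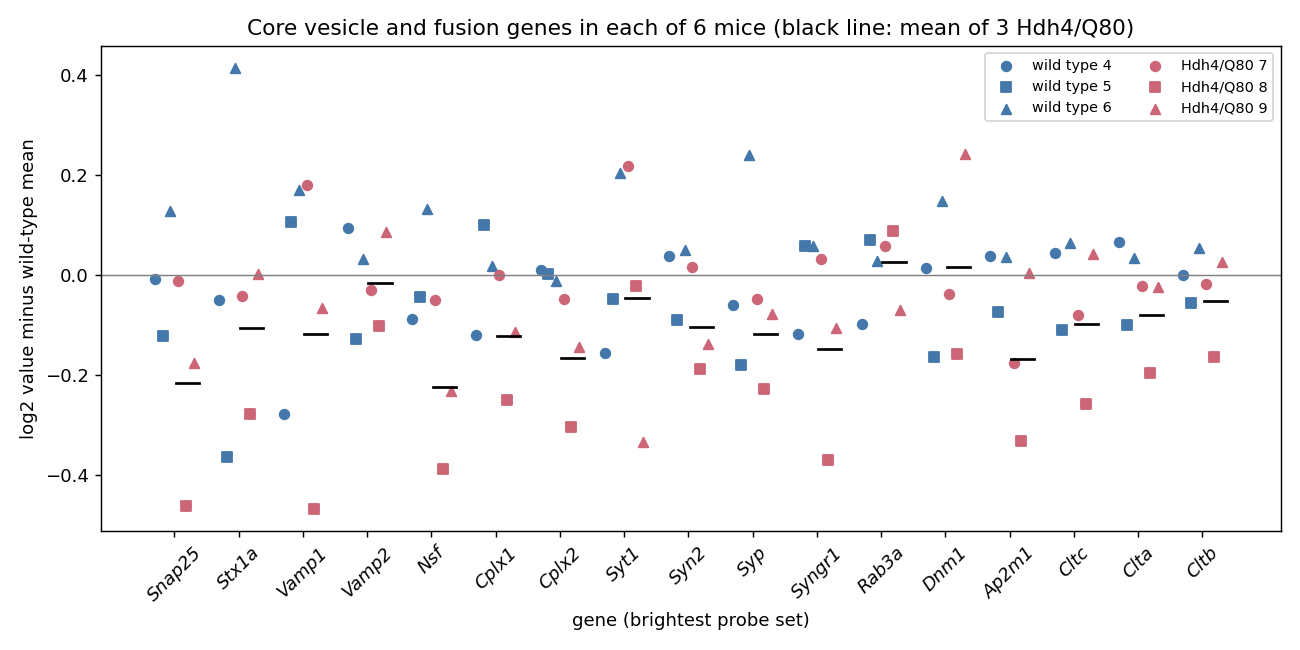
Log2 value of each mouse minus the wild-type mean (vertical axis) for the 17 measured core genes, blue for wild type and red for Hdh4/Q80, with the marker shape giving the mouse and the black line the mutant mean. Hdh4/Q80 replicate 8 (red squares) is the lowest mouse in 12 of the 17 genes, and wild-type replicate 6 (blue triangles) is the highest in 8.

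The synaptotagmins had differences of both signs, and 0 of their 14 probe sets (12 genes) passed, with 9 below 0, 5 above and a median of -0.01. Without Hdh4/Q80 replicate 8 the median was 0.01, with 7 of 14 below 0. The lowest difference, -0.27 ± 0.125 (SE), belonged to Syt11, a synaptotagmin that lacks calcium binding and acts in membrane retrieval. Syt11 read 9.86, 9.997 and 10.02 in wild type and 9.94, 9.39 and 9.75 in Hdh4/Q80. Replicate 7 lay within the wild types and replicate 8 far below them, and without replicate 8 the difference was -0.11. The highest difference, 0.29 ± 0.122 (SE; unadjusted p = 0.042, adjusted p = 0.857 in limma's test), belonged to Syt4, an activity-regulated synaptotagmin of dense-core vesicles. Syt4 read 6.66, 6.45 and 6.47 in wild type and 6.72, 7.10 and 6.61 in Hdh4/Q80. Again replicate 8 was the extreme mouse, here on the high side, and without it the difference was 0.14. Syt6 read 7.03, 6.93 and 6.91 against 6.97, 6.65 and 6.60, lower in 2 of the 3 mutants than in any wild type (-0.21 ± 0.101, SE, and -0.17 without Hdh4/Q80 replicate 8).

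Syt1, the calcium sensor of fast release in forebrain neurons, read 9.08, 9.19 and 9.44 in wild type and 9.45, 9.21 and 8.90 in Hdh4/Q80. The highest and the lowest mouse were both mutants, and the difference was -0.05 ± 0.138 (SE) with an interval of -0.35 to 0.26 (-0.06 without Hdh4/Q80 replicate 8). Syt2, the fast sensor known best from hindbrain synapses, differed by 0.0046 on its brighter probe set. Its dimmer probe set read 5.79, 5.81 and 5.69 against 5.98, 5.97 and 5.82, with the mutants just above all wild types (0.16 ± 0.0761, SE, and 0.14 without Hdh4/Q80 replicate 8), at a level near the lower quartile of the arrays. Syt3 gave the smallest p of the 86 probe sets on an _f_at set that read 6.47, 6.40 and 6.50 against 6.57, 6.76 and 6.72 (0.22 ± 0.0745, SE; unadjusted p = 0.0135, adjusted p = 0.857 in limma's test). On it all 3 mutants lay above all wild types, and the difference was 0.19 without Hdh4/Q80 replicate 8, while the brighter Syt3 probe set differed by -0.01, with an interval of -0.20 to 0.18. Syt17 had almost as wide a wild-type range as Stx1a, at 6.32, 6.50 and 7.06 in wild type and 6.72, 6.17 and 6.86 in Hdh4/Q80, and its difference of -0.05 became 0.16 without Hdh4/Q80 replicate 8. Syt5, Syt7, Syt8, Syt9 and Syt10 differed by -0.02, -0.01, 0.02, -0.05 and -0.0023. Syt9 and Syt10 read 5.03 to 5.08 on average in both groups, under the lower quartile of every array, where RMA compresses differences.

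The proteins of the vesicle membrane and surface were measured by 1 probe set each for 5 genes, 4 of them below 0 and 0 passing (median -0.10). Without Hdh4/Q80 replicate 8, 5 of the 5 were below 0 (median -0.04). Syp, synaptophysin, the abundant vesicle membrane protein, read 8.53, 8.41 and 8.83 in wild type and 8.54, 8.36 and 8.51 in Hdh4/Q80. Wild-type replicate 6 was far above the other 5 mice, and without it the difference of -0.12 ± 0.108 (SE) became 0.0024, while without Hdh4/Q80 replicate 8 it was -0.06. Syn2, synapsin 2, which tethers vesicles in the reserve pool, read 9.56, 9.44 and 9.58 against 9.54, 9.34 and 9.39 (-0.10 ± 0.0796, SE, and -0.06 without Hdh4/Q80 replicate 8). Replicates 8 and 9 of the mutants lay below all wild types. Syngr1, the neuronal synaptogyrin, read 8.72, 8.90 and 8.90 against 8.87, 8.47 and 8.73 (-0.15 ± 0.105, SE), with Hdh4/Q80 replicate 8 well below the rest and a difference of -0.04 without it. Its relatives Syngr2 and Syngr4 differed by -0.00057 and 0.06.

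Rab3 GTPases sit on vesicles and steer docking. With genes named as their interactors they gave 7 probe sets for 5 genes, 2 below 0 and 5 above, with 0 passing (median 0.03). Both turned without Hdh4/Q80 replicate 8, to 4 of 7 below 0 and a median of -0.0049. Rab3a, the main Rab3 of brain synapses, read 8.55, 8.72 and 8.68 in wild type and 8.71, 8.74 and 8.58 in Hdh4/Q80, a difference of 0.03 (interval -0.15 to 0.20; -0.0049 without Hdh4/Q80 replicate 8), and 0.03 on its dim second probe set. Rab3b read 8.34, 8.31 and 8.33 against 8.27, 8.16 and 8.21. The wild types were close together and all 3 mutants lay below them, by -0.11 ± 0.0667 (SE; adjusted p = 0.857 in limma's test), or -0.08 without Hdh4/Q80 replicate 8. Rab3d differed by 0.0023 and Rab3il1, an exchange factor, by 0.10 (0.02 without Hdh4/Q80 replicate 8). Rab3ip, encoding the exchange factor Rabin8, differed by 0.06 on one probe set and -0.16 on the other.

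The Rab GTPases outside the Rab3 family gave 4 probe sets above 0 and 3 below, with 0 passing (median 0.03). Without Hdh4/Q80 replicate 8, 3 of the 7 were below 0 (median 0.05). Rab33b, a Golgi and autophagy Rab, read 7.08, 7.08 and 6.99 in wild type and 7.19, 7.27 and 7.30 in Hdh4/Q80. All 3 mutants lay above all 3 wild types, and the difference of 0.20 ± 0.0691 (SE; interval 0.05 to 0.36, unadjusted p = 0.0158) ran from 0.17 to 0.23 with 1 mouse left out (0.19 without Hdh4/Q80 replicate 8). After adjustment by limma its p was 0.857. The brighter Rab33b probe set, an _f_at set, read 8.87, 8.89 and 8.92 against 8.88, 9.02 and 9.002 (0.08, and 0.05 without Hdh4/Q80 replicate 8), with the groups touching at Hdh4/Q80 replicate 7. Rab34 differed by 0.14, Rab33a by 0.03 and Rab35 by -0.07, and Rab31 by -0.10 and -0.07 on its 2 probe sets.

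The genes of vesicle retrieval were measured by 17 probe sets for 11 genes, with 11 probe sets below 0, 6 above and 0 passing (median -0.07). Without Hdh4/Q80 replicate 8, 7 of the 17 were below 0 (median 0.02). Ap2m1, the AP-2 subunit that reads sorting signals in cargo, read 11.22, 11.11 and 11.22 in wild type and 11.01, 10.85 and 11.19 in Hdh4/Q80. Replicates 7 and 8 of the mutants lay below all wild types and replicate 9 did not, and the difference was -0.17 ± 0.0915 (SE; -0.09 without replicate 8). A dimmer _r_at probe set of Ap2m1 differed by 0.10. The other AP-2 subunits had differences of -0.11 (Ap2a1), -0.07 and -0.09 (Ap2a2), -0.11 (Ap2b1) and -0.08 and 0.06 (Ap2s1, both probe sets dim). Ap2a1 was at 0.02 without Hdh4/Q80 replicate 8. Cltc, the clathrin heavy chain, read 10.32, 10.16 and 10.34 against 10.19, 10.01 and 10.31, with overlapping groups (-0.10 ± 0.0911, SE, and -0.02 without Hdh4/Q80 replicate 8). Clta, a clathrin light chain, read 9.03, 8.86 and 8.996 against 8.94, 8.77 and 8.94 on its brighter probe set (-0.08, and -0.02 without that mouse), and differed by -0.06 on the other. Cltb, the other light chain, read 8.19, 8.14 and 8.25 against 8.17, 8.03 and 8.22 (-0.05, and 0.0039 without that mouse). For both light chains, as for Cltc, Hdh4/Q80 replicate 8 was the lowest of the 6 mice. Dnm1, the neuronal dynamin that pinches off vesicles, read 12.09, 11.91 and 12.22 against 12.04, 11.92 and 12.32. Its groups overlapped throughout (0.02, interval -0.24 to 0.27, and 0.10 without Hdh4/Q80 replicate 8). The second Dnm1 probe set, nearly as bright, read 11.62, 11.48 and 11.78 against 11.54, 11.23 and 11.88 (-0.08, and 0.08 without that mouse). Dnm2, the dynamin of most cells, differed by 0.09 and 0.01. Snap91 read 7.55, 7.35 and 7.78 in wild type and 7.68, 7.72 and 7.80 in Hdh4/Q80. Its mutants were tightly grouped at and just above the upper part of the wild-type range, and the difference was 0.18 ± 0.104 (SE; adjusted p = 0.857 in limma's test), or 0.18 without Hdh4/Q80 replicate 8.

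Of the 65 genes 20 had more than 1 probe set, and in 9 of them the probe sets differed in sign (Ap2m1, Ap2s1, Dnm1, Rab3ip, Stxbp2, Syt3, Vamp1, Vamp4 and Vamp8). In 6 genes all probe sets were below 0 and in 5 all were above. The widest gap between probe sets of 1 gene was that of Ap2m1 (-0.17 against 0.10).

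**Figure D3:**
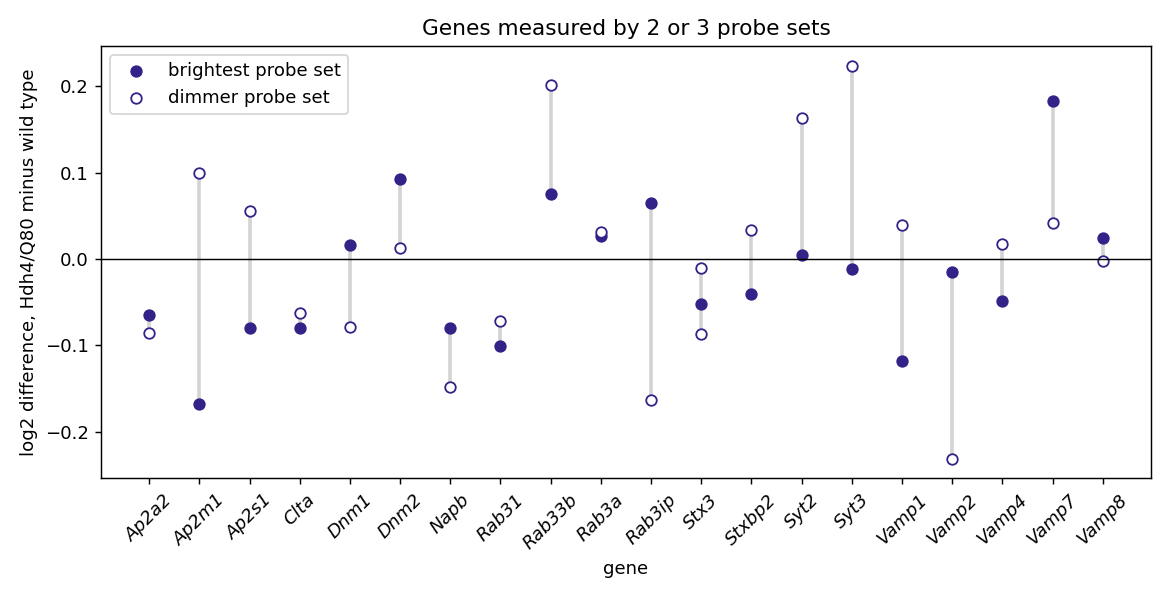
Log2 difference (Hdh4/Q80 minus wild type) on the vertical axis for each probe set of the 20 genes with 2 or 3 probe sets, filled for the brightest and open for the dimmer ones, with a grey bar joining probe sets of 1 gene. The bar crosses 0 in 9 genes, and the widest gaps belong to Ap2m1, Rab3ip, Syt3 and Vamp2.

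The difference between groups varied with the level of the probe set. Among the 9 probe sets with a mean level of 10 or more, 8 were below 0 and the median difference was -0.10. Over all 545 probe sets this bright 72.5% were below 0 and the median was -0.05. At levels from 8 to 10, 24 of 32 were below 0 (median -0.05), against 62.8% of all 3113 probe sets (median -0.03). At levels from 6 to 8, 16 of 35 were below 0 (median 0.0071), against 49.8% of all 5320. Without Hdh4/Q80 replicate 8 the brightest group had 5 of 9 below 0 and a median of -0.02, and the group from 8 to 10 had 16 of 32 below 0 and a median of 0.0013. The same values over all probe sets were then 52.5% and 50.3% below 0. The division by level was chosen after the values were seen.

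**Figure D4:**
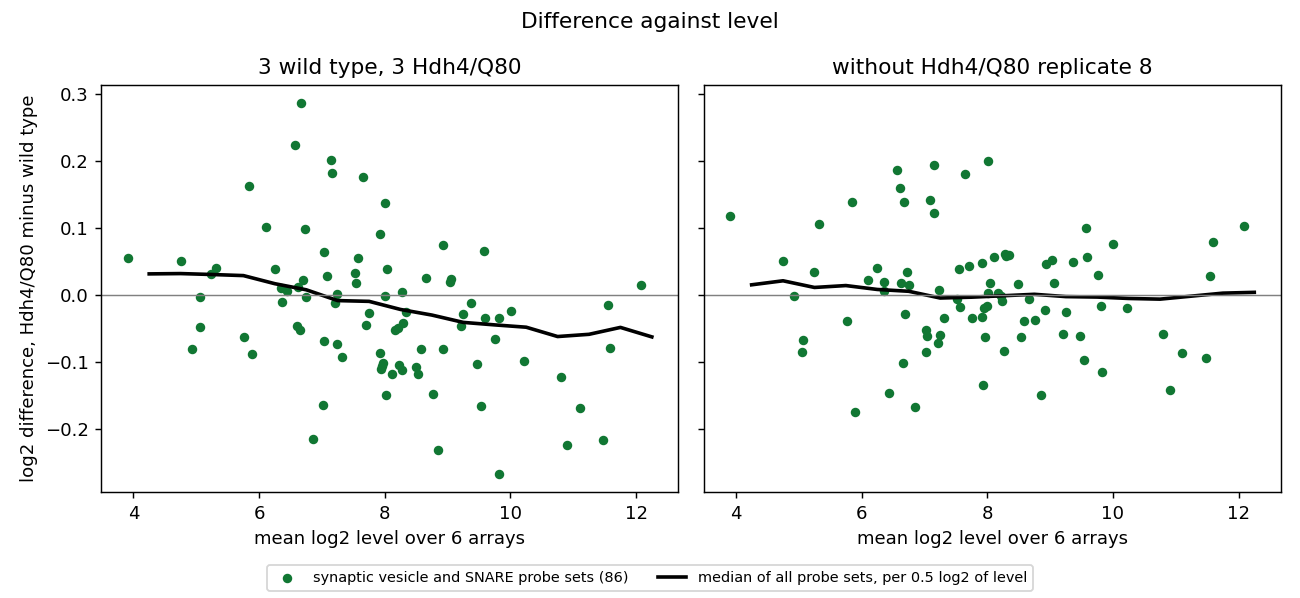
Log2 difference (Hdh4/Q80 minus wild type, vertical axis) against the mean log2 level over 6 arrays (horizontal axis) for the 86 probe sets (green), with the median of all probe sets at each level as a black line, with all 6 mice (left) and without Hdh4/Q80 replicate 8 (right). The black line falls with level on the left, to a median of -0.05 at levels of 10 or more, and lies near 0 on the right (-0.0045).

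By mouse, Hdh4/Q80 replicate 8 was the lowest of 6 for 38 of the 86 probe sets (44.2%), against 33.7% over all probe sets. Wild-type replicate 6 was the highest for 24 (27.9%), against 14.5% over all, and Hdh4/Q80 replicate 9 for 22 (25.6%), against 20.1%. The median deviation of the 86 probe sets from the mean over 6 arrays reached -0.07 in Hdh4/Q80 replicate 8 and 0.06 in wild-type replicate 6, and it lay between -0.02 and 0.03 in the other 4 mice. The median range among the 3 mutants was 0.253 over the 86 probe sets and that among the wild types 0.159, against a median absolute difference between the groups of 0.0649. Of a core list of 22 genes 17 were measured: Snap25, Stx1a, Vamp1, Vamp2, Nsf, Cplx1, Cplx2, Syt1, Syn2, Syp, Rab3a, Syngr1, Dnm1, Ap2m1, Cltc, Clta and Cltb. On the brightest probe set 15 of the 17 were below 0 (median -0.11), against 53.3% of all genes, on a list chosen with earlier results of these data known. Of the 17 only Stx1a had a mean level under 8. At levels from 8 to 10 and of 10 or more, 62.8% and 72.5% of all probe sets were below 0. Without Hdh4/Q80 replicate 8, 13 of the 17 were below 0 (median -0.04), against 50.3% and 52.5% of all probe sets at those levels.

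Genes that mark other tissue or neurons at large also varied between these mice, and their part in the differences above was not tested. Tbr1, a transcription factor of cortical glutamatergic neurons, read 6.83, 6.10 and 8.04 in wild type and 6.96, 5.95 and 6.92 in Hdh4/Q80. Wild-type replicate 6 was the highest mouse for Tbr1, Stx1a, Syp and Syt17 alike. Wild-type replicate 5 and Hdh4/Q80 replicate 8 were the lowest pair for Tbr1, Stx1a and Syp. Syt17 was instead lowest in Hdh4/Q80 replicate 8 and wild-type replicate 4. No other measured cortical marker had the lowest pair of Tbr1. Cux2, the brightest of the others, was highest in wild-type replicate 6 (7.10) but lowest in Hdh4/Q80 replicate 9 (6.62) and wild-type replicate 4 (6.84). Of 9 listed cortical markers 5 were measured, 3 of them under the lower quartile of every array. In them 3 differences were below 0 and 2 above, and Neurod1, one of the dim ones, was higher in all 3 mutants than in any wild type (3.48, 3.32 and 3.45 against 3.59, 3.66 and 3.64). The sum of their linear levels ran from 249.5 to 465.5 in wild type and from 245.0 to 320.1 in Hdh4/Q80. Map2, a dendritic microtubule protein of neurons, read 7.27, 7.49 and 7.66 in wild type and 7.40, 6.83 and 6.76 in Hdh4/Q80, low in replicates 8 and 9 as Nsf and the dimmer Vamp2 probe set were. Nefl and Nefm were low in the same mice, while Eno2, Thy1, Tubb3 and Uchl1 were within or above the wild-type range in replicate 9. All 7 measured pan-neuronal markers of 8 were below 0, against 53.3% of all genes. Eno2, Thy1, Tubb3 and Uchl1 read above 10 in every mouse, and 72.5% of all probe sets that bright were below 0. The summed levels of the 7 ran from 9349 to 10249 in wild type. In Hdh4/Q80 they were 7647 in replicate 8, and 9277 and 9918 in replicates 7 and 9. Ttr, the transthyretin of choroid plexus, read 8.48, 8.32 and 10.26 against 8.46, 10.59 and 11.24. The 3 measured choroid plexus markers of 5 summed to 525 to 1508 in wild type and 559 to 2857 in Hdh4/Q80. The sums of 8 spiny projection neuron markers of 11 (12349 to 14876 against 12933 to 14045), 3 interneuron markers of 5 (5656 to 6365 against 5217 to 6182) and 4 endothelial markers of 4 (1053 to 1174 against 1055 to 1088) overlapped between the groups. Those of 6 oligodendrocyte markers of 7 (11606 to 12321 against 10688 to 11395), 5 astrocyte markers of 6 (3743 to 3973 against 3063 to 3700) and 6 microglia markers of 6 (3396 to 3558 against 2532 to 3146) did not. Sums of linear levels weigh bright genes most. Among the oligodendrocyte markers Mobp differed by -0.31 and Mal by -0.23, but Mag and Mog by -0.03 each, Mbp by 0.0077 and Cnp by 0.12. Among the microglia markers C1qa, C1qb, C1qc and Tyrobp differed by -0.28, -0.35, -0.32 and -0.21 with groups apart. Csf1r (-0.11) and Cx3cr1 (-0.0077) had overlapping groups. Of the astrocyte markers only S100b had groups apart (-0.19), while Gfap, Slc1a2, Aldoc and Aqp4 overlapped (-0.22, -0.14, -0.11 and -0.08). The mutants lay entirely below the wild types in 5.05% of all probe sets. With 3 mice against 3 an exact permutation test of such sums cannot go below 0.1, so none is drawn on here. Penk, at 12.92 to 13.14, was the brightest of the 8 spiny projection neuron markers, of which 2 were below 0. Gad1 was higher in all 3 mutants than in any wild type (10.52, 10.51 and 10.33 against 10.64, 10.80 and 10.71). The mutants lay entirely above the wild types in 6.67% of all probe sets. For the other markers of this list the groups overlapped. Ptpn5 and Drd2 differed by -0.21 and -0.06, Gad2 by 0.0089, Penk and Tac1 by 0.02 each, Pdyn by 0.08 and Rgs9 by 0.11. None of the marker genes in any of these lists passed limma's test.

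**Figure D5:**
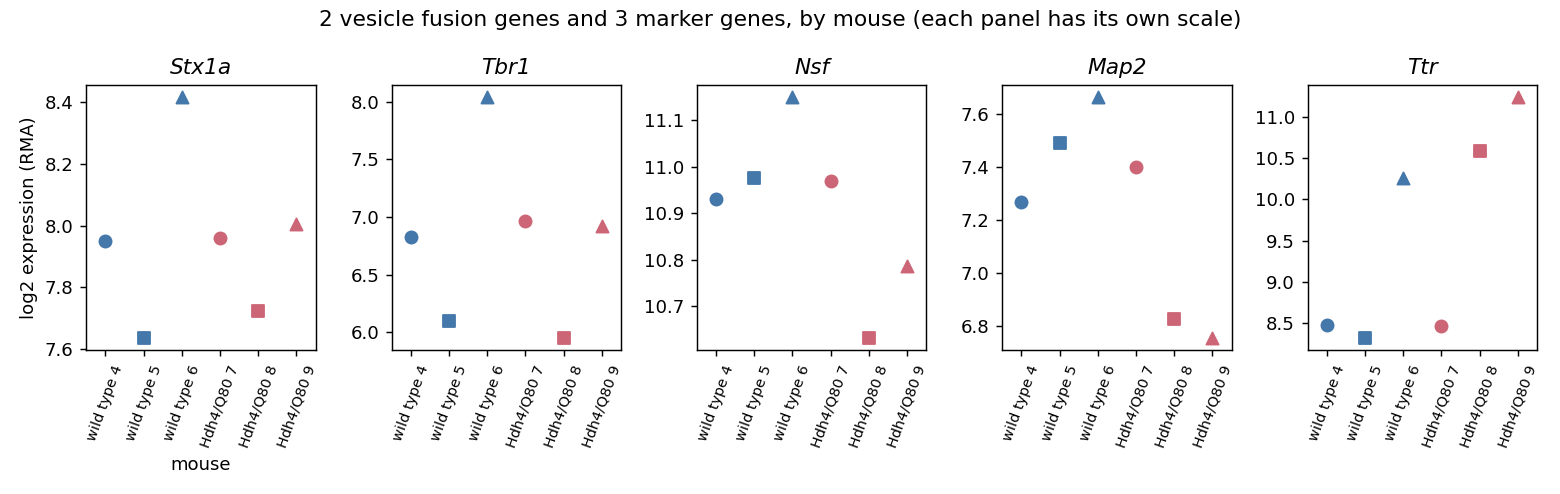
Log2 expression (vertical axis, a scale of its own in each panel) in each of the 6 mice for the SNARE gene Stx1a, the cortical marker Tbr1, the SNARE-recycling gene Nsf, the neuronal marker Map2 and the choroid plexus marker Ttr, blue for wild type and red for Hdh4/Q80. Stx1a and Tbr1 peak in wild-type replicate 6 (8.42 and 8.04), Nsf and Map2 are low in Hdh4/Q80 replicates 8 and 9, and Ttr is high in wild-type replicate 6 and Hdh4/Q80 replicates 8 and 9.

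Other genes of the nerve terminal, outside the 65, also gave no call. Of 62 listed genes for active zones, vesicle transporters, proton pumps, endocytic accessories and presynaptic channels 33 were measured and 0 passed, with 23 below 0 and 10 above (69.7% below 0, against 53.3% of all genes, median -0.04). Most of the 33 had levels of 8 or more, where 62.8% (8 to 10) and 72.5% (10 or more) of all probe sets were below 0. Without Hdh4/Q80 replicate 8, 15 of the 33 were below 0 and the median was 0.0124. Of all probe sets 48% were then below 0, with 50.3% at levels of 8 to 10 and 52.5% at 10 or more. Unadjusted p-values under 0.05 belonged to 2 of the 33, both lower, where 2.21% of all probe sets were lower and 2.90% higher. Gap43, a growth-associated protein of axon terminals, read 9.47, 9.27 and 9.36 in wild type and 9.25, 9.11 and 9.13 in Hdh4/Q80, with all mutants just below all wild types (-0.20 ± 0.0779, SE; adjusted p = 0.857 in limma's test). Cacna1a, the pore of the P/Q-type calcium channel that triggers release, read 7.33, 7.41 and 7.51 against 7.42, 6.999 and 7.01, low in replicates 8 and 9 and within the wild types in replicate 7 (-0.27 ± 0.114, SE; adjusted p = 0.857).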

How the data were processed

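Affymetrix arrays were hybridised with cRNA of 6 striata, per the labels' protocols. The authors deposited log2 values, 1 for each probe set, computed by RMA (affy) per the submitters' processing notes. Which arrays were normalized together was not given in the sources read. RMA sets all arrays to a like distribution and shrinks differences of dim probe sets. Of 12488 rows 66 controls were left out. Names came from the platform annotation (10833 probe sets with 1 symbol, 396 with several, none of which matched, and 1193 with none), and all 65 gene identifiers matched RefSeq's table with the same symbols. No detection calls were used, and the number of arrays limits the precision. Each array was taken as 1 mouse, since the design text counts 3 per group.

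Groups came from the sample titles. The genotypes were tested with limma 3.58.1 (R 4.3.3; 5.81 prior and 4 residual degrees of freedom) at a Benjamini-Hochberg threshold of 0.05 over 12422 probe sets; the fit was tested on simulated data. Differences are mutant minus wild type. The genes and lists were chosen with earlier results of these data known. Named in full were 17 core genes and the 6 probe sets of smallest p in each direction, besides genes with disagreeing probe sets and paralogues. Snap23, Syt17, Stx8, Tbr1, Neurod1, Gad1, Map2, Ttr, Gap43 and Cacna1a were named after their values were seen. Marker lists were summed as linear levels of each gene's brightest probe set. The refits used array weights, gene means, other scalings (cyclic loess, quantile, median), moderation with a trend and robust prior, no probe sets among the dimmest 40%, and 5 of the 6 mice in turn; unsuffixed probe sets were also summarised alone.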

Additional observations from a re-analysis of the deposited data

How the results depend on the processing

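Under all 13 refits 0 probe sets of the 86 passed, and the smallest adjusted p among them was 0.13 (with array weights). The median difference of -0.03 ran from -0.05 to 0.0013 over all alternatives, the last without Hdh4/Q80 replicate 8. Of 26 named probe sets 17 kept their sign throughout. Probe sets at an unadjusted p under 0.05 and higher (3) became 6 with array weights and 1 with gene means (1 to 4 with a mouse left out). The lower ones (1) became 2 after median centring, 0 with trended and robust moderation and 0 without the dimmest 40% of probe sets (0 to 6 with a mouse left out). Probe sets with groups apart (5) became 3 without the dimmest 40%, which drops 19 of the 86, and 9 to 18 with a mouse left out, where fewer mice are compared. With a mouse left out, group medians ran from -0.0155 to 0.0611 (Rab3 and named interactors) and -0.0495 to 0.0700 (other Rab GTPases). They ran from -0.0302 to 0.0522 (synaptotagmins) and -0.15 to 0.0024 (vesicle membrane proteins). Signs turned with array weights for Dnm1 (-0.0501), Syt1 (0.13), Syt6 (0.0011) and Vamp1 (0.0886), which rest mainly on Hdh4/Q80 replicate 7 on the mutant side (weight 6.19, against 0.228 and 0.405). The sign also turned with gene means for Dnm1 (-0.0317), and for the brighter Vamp2 probe set after quantile normalization (0.0455) and cyclic loess (0.0519). With a mouse left out they turned for Cltb (-0.0911 to 0.0039), Dnm1 (-0.10 to 0.10), Rab3a (-0.0231 to 0.0738), Stx1a (-0.29 to 0.10), Syp (-0.21 to 0.0024), Syt1 (-0.18 to 0.10), Vamp1 (-0.27 to 0.057) and the brighter Vamp2 probe set (-0.0787 to 0.0324). The causes were not tested. No paired analysis was possible because the groups share no replicate number.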
